A study of Drosophila melanogaster with 13 samples.

Results

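The 10 genes repo, alrm, Eaat1, Gs2, moody, Mdr65, nrv2, Gat, drpr and wrapper mark glial cells of the fly nervous system or carry out transport and clearance there. They were picked by name, by matching FlyBase symbols to the FBgn identifiers of the count tables, and all 10 of them were found among 17370 gene rows. Their messenger RNA was followed in whole heads of young adult Drosophila melanogaster across 2 larval diets, 2 sexes and 3 strains.

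There was 1 RNA sample for each of the 12 combinations, a pool of 70 to 80 heads dissected 2 to 6 h after eclosion. HPS food had a protein to carbohydrate ratio of 0.43 (more protein, less sugar) and LPS food a ratio of 0.1 (less protein, more sugar). SD2, SD3 and SD6 are isofemale lines collected near San Diego, so each strain is 1 line, and males and females of a line and diet were raised together in 10 vials of 40 larvae. The labels name no transgene or mutation in any line, and larvae on both diets grew at 25 °C.

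Insect glia fall into classes that wrap neurons, seal the brain from the blood and take up transmitters. The transcription factor Repo is made in nearly all of them outside the midline. Astrocyte-like glia reach into the synaptic neuropil and clear glutamate and GABA, cortex glia enclose neuronal cell bodies, and the perineurial and subperineurial layers form the blood-brain barrier. In a bulk sample of heads, fewer cells of a type and less RNA per cell cannot be told apart.

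The 13 libraries held between 7.84 M and 25.3 M reads assigned to genes. For the male LPS SD2 sample, 2 libraries were made from 1 RNA, and their counts were added together. The second of them and the male HPS SD2 library came from run0465 and the other 11 from run0437. The tissue matched its label in that every neuronal and photoreceptor marker measured had reads in every sample, with summed levels of 3204 to 5079 CPM for 9 neuronal genes and 42580 to 56480 CPM for 11 photoreceptor genes. CPM stands here for counts per M gene reads after TMM scaling of the library sizes.

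2 male LPS libraries went against their strain labels over all genes. Deviations from the group mean correlated at 0.615 to 0.81 between samples of the same strain when neither of these libraries was involved. For the pair in doubt, labelled male LPS SD3 and male LPS SD6, the correlation was −0.358 to −0.271 within the label and 0.636 to 0.766 across the 2 labels. The glial genes went the same way, since the first lay nearer to the SD6 mean for 9 of 10 genes (alrm was the exception) and the second nearer to the SD3 mean for 9 of 10 (Gs2 was the exception). Strain comparisons are therefore given first without these 2 libraries, from 10 samples, and diet and sex comparisons from all 12 samples as labelled, with the other treatment of the labels beside them.

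Per kilobase of annotated exon, the cytosolic glutamine synthetase gene Gs2 stood highest, at 1244 ± 208 CPM per kb (SD, n = 12). Below it on the same scale came nrv2 at 262.9 ± 35.4, Eaat1 at 192.8 ± 36.0, Gat at 126.3 ± 19.3 and alrm at 93.1 ± 25.5 CPM per kb. Lower in the order were Mdr65 at 59.8 ± 7.60, drpr at 41.1 ± 6.93, moody at 29.7 ± 4.73, wrapper at 22.5 ± 7.27 and repo at 14.8 ± 2.13 CPM per kb. Gs2 was the gene whose 12 values did not overlap those of the next one. Every other pair of neighbours in this order had overlapping ranges, although the higher gene exceeded the lower one within 9 to 12 of the 12 samples. The ratio of the highest to the lowest sample ran from 1.42 for Mdr65 to 2.43 for alrm and reached 3.49 for wrapper, which therefore varied most. Read depth did not limit these genes, as repo and wrapper, at the bottom of the order, still had 298 to 1537 and 156 to 1828 reads per sample.

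Strain was the factor along which most of the glial genes differed. In the edgeR quasi-likelihood F-test over the 3 strains with Benjamini-Hochberg adjustment, 8 of the 10 genes passed an adjusted p of 0.05, against a background of 35.1% of all genes tested. The 2 that did not were Gs2 (adjusted p = 0.0663) and Gat (adjusted p = 0.156). Between pairs of strains, 5 of 10 passed for SD3 against SD2 (background 23.2%), 2 of 10 for SD6 against SD2 (background 22.4%) and 7 of 10 for SD6 against SD3 (background 20.2%). By direction, 4 genes were higher in SD3 than in SD2 (background 12.7%), 2 were lower in SD6 than in SD2 (background 10.3%) and 6 were lower in SD6 than in SD3 (background 10.2%). The median log2 fold change of the 10 genes was 0.21 for SD3 against SD2, where the median of all genes was −0.01, and −0.33 for SD6 against SD3, where that of all genes was 0.01.

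These counts rest on the treatment of the 2 male LPS libraries. With both kept under their labels, 1 of 10 genes passed the F-test (background 9.2%), and with their strain labels exchanged 10 of 10 passed (background 45.7%). As labelled, 1 of 10 passed for SD3 against SD2 (Mdr65, background 9.81%), 0 for SD6 against SD2 (background 10.0%) and 0 for SD6 against SD3, where none of all genes passed either (background 0.0%). With exchanged labels the counts were 7 for SD3 against SD2 (background 30.7%), 6 for SD6 against SD2 (background 27.1%) and 8 for SD6 against SD3 (background 30.3%). DESeq2 on the 10 samples gave 6 for SD3 against SD2 (background 20.5%) and 4 for SD6 against SD2 (background 19.4%). The count for SD6 against SD2 was 5 without male HPS SD3 (background 24.5%), and the count for SD6 against SD3 was 4 without male HPS SD6 (background 13.9%). Values below come from the 10 samples without these libraries and are listed in the order female HPS, female LPS, male HPS and, for SD2, male LPS.

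**Figure D1:**
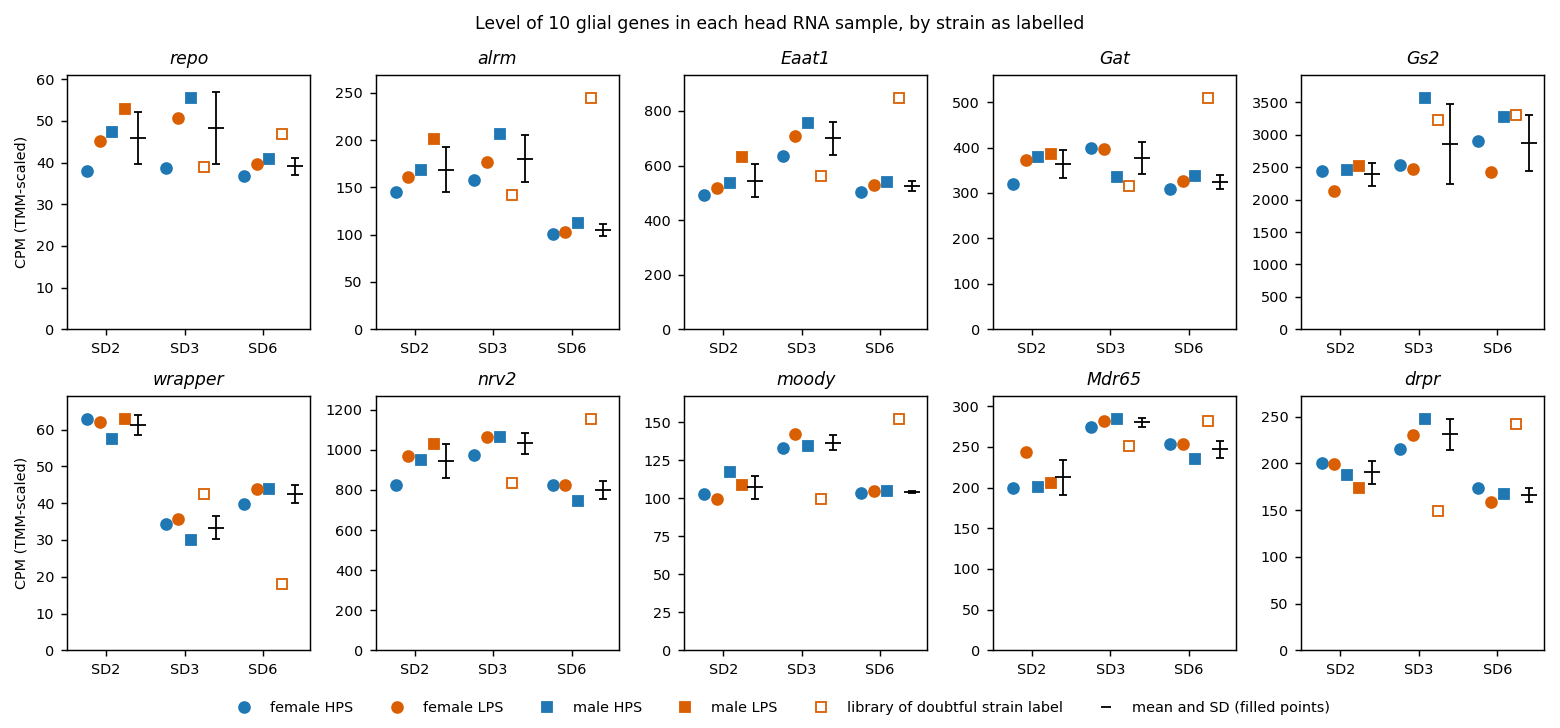
Level of each glial gene in CPM (TMM-scaled counts per M gene reads, vertical axis from 0) in each head RNA sample, grouped by strain as labelled, with colours and symbols for diet and sex and open squares for the 2 male LPS libraries that go against their labels, and with bars for the mean and SD of the filled points. Among the filled points, levels of wrapper are highest in SD2 and levels of alrm lowest in SD6. Each open square lies nearer to the mean of the other strain for 9 of 10 genes. The one labelled male LPS SD6 still lies beyond every SD3 sample for several genes, such as wrapper (18.0 CPM) and alrm (244.9 CPM).

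The transcription factor gene repo (FBgn0011701, chromosome arm 3R, 18236192 to 18239602, plus strand) is the general glial marker. Its level was 37.9, 45.2, 47.2 and 52.9 CPM in SD2, 38.7, 50.6 and 55.6 CPM in SD3, and 36.7, 39.7 and 40.7 CPM in SD6. The 3 strains overlapped, and within each strain the HPS females had the lowest value. SD6 was lower than SD3 in 3 of 3 matched samples, with a log2 fold change of −0.30 ± 0.08 (SE, edgeR adjusted p = 0.021). This call was lost, with values on the same side of 0, when any of 4 samples was left out (female LPS SD3, female LPS SD6, male HPS SD3 or male HPS SD6). The differences of both strains from SD2, 0.16 for SD3 and −0.14 for SD6 on the log2 scale, did not pass.

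The gene alrm (FBgn0039332, 3R, 25381065 to 25382781, minus strand) encodes a leucine-rich repeat protein used as the marker of astrocyte-like glia. It lies inside Fur1 on the same strand and shares 0 exon bases with it. Its level was 144.8, 160.9, 168.2 and 201.3 CPM in SD2, 157.5, 177.1 and 206.8 CPM in SD3, and 100.6, 102.7 and 112.5 CPM in SD6. All 3 SD6 samples lay below every SD2 and SD3 sample, while SD2 and SD3 overlapped and their difference, 0.17, passed with exchanged labels alone (0.21, adjusted p = 0.0234). The log2 fold change was −0.77 ± 0.07 for SD6 against SD3 (SE, edgeR adjusted p = 1.02e-05) and −0.60 ± 0.07 for SD6 against SD2 (adjusted p = 3.7e-05). The library labelled male LPS SD6 stood at 244.9 CPM, the highest of all 12, and with both male LPS libraries kept as labelled the SD6 to SD2 difference was −0.32 and did not pass (adjusted p = 0.413).

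Glutamate released at synapses is taken up by the transporter Eaat1, which sits in the membrane of astrocyte-like glia (FBgn0026439, 2L, 9333567 to 9341925, plus strand). Its level was 492.9, 519.2, 536.3 and 631.7 CPM in SD2, 635.8, 707.9 and 755.1 CPM in SD3, and 504.3, 530.0 and 540.1 CPM in SD6. SD3 lay above both other strains with no overlap, and SD2 and SD6 covered the same levels. Eaat1 was higher in SD3 than in SD2 by a log2 fold change of 0.42 ± 0.07 (SE, edgeR adjusted p = 0.00105), a ratio of 1.33. SD6 was lower than SD3 by −0.41 ± 0.08 (adjusted p = 0.00195). With the 2 male LPS libraries kept as labelled, neither passed, at 0.301 (adjusted p = 0.234) and −0.162 (adjusted p = 0.884).

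Gs2, which turns glutamate and ammonia into glutamine (FBgn0001145, X, 11422832 to 11430197, plus strand), had 2446, 2135, 2454 and 2526 CPM in SD2, 2534, 2471 and 3574 CPM in SD3, and 2905, 2426 and 3283 CPM in SD6. The strains overlapped, and the male HPS samples of SD3 and SD6 were the high ones. The log2 differences from SD2 were 0.26 for SD3 (adjusted p = 0.0738) and 0.27 for SD6 (adjusted p = 0.0654). Both passed with DESeq2 (adjusted p = 0.02 and 0.017) and with exchanged labels (edgeR adjusted p = 0.0217 and 0.0228), the first also without female HPS SD3 (adjusted p = 0.0424) and the second without male HPS SD3 (adjusted p = 0.0428).

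Gat, the plasma membrane GABA transporter of astrocyte-like glia (FBgn0039915, chromosome 4, 629691 to 635350, plus strand), had 319.6, 371.9, 379.2 and 386.6 CPM in SD2, 398.0, 397.3 and 336.3 CPM in SD3, and 308.1, 326.6 and 338.2 CPM in SD6. All 3 strains overlapped and no pairwise difference passed, the closest being SD6 against SD3 at −0.22 ± 0.09 (SE, edgeR adjusted p = 0.105). That difference passed with exchanged labels (−0.341, adjusted p = 0.0138) and without male HPS SD3 (−0.329, adjusted p = 0.0181). Between the 2 male LPS SD2 libraries, made from the same RNA, the second was higher by 0.418 on the log2 scale for Gat and by 0.319 for Eaat1, where the SD of this difference over 10118 genes was 0.338. For the other 8 genes the size of that difference was 0.227 or less.

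The barrier is represented by moody and Mdr65. The gene moody (FBgn0025631, X, 2044292 to 2050120, minus strand) encodes a G protein-coupled receptor that subperineurial glia need to build a tight barrier. Its level was 102.7, 99.7, 117.4 and 108.5 CPM in SD2, 133.2, 142.4 and 134.0 CPM in SD3, and 103.4, 104.5 and 104.6 CPM in SD6. SD3 lay above both other strains with no overlap. The log2 fold change was 0.37 ± 0.07 for SD3 against SD2 (SE, edgeR adjusted p = 0.00222) and −0.39 ± 0.07 for SD6 against SD3 (adjusted p = 0.00235). Neither passed with the 2 male LPS libraries kept as labelled, at 0.253 (adjusted p = 0.318) and −0.141 (adjusted p = 0.894).

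Mdr65 encodes an ABC transporter that exports foreign compounds at the barrier (FBgn0004513, 3L, 6240500 to 6245746, minus strand). Its level was 200.0, 244.3, 200.8 and 205.6 CPM in SD2, 274.5, 281.5 and 284.6 CPM in SD3, and 253.6, 253.2 and 235.4 CPM in SD6. SD3 was highest with no overlap with either strain, and SD6 overlapped SD2 through the female LPS SD2 sample alone. The SD3 to SD2 difference of 0.40 ± 0.08 on the log2 scale (SE, edgeR adjusted p = 0.00215) passed in all 17 alternatives, including the libraries kept as labelled (0.363, adjusted p = 0.0205). SD6 against SD2 was 0.22 (adjusted p = 0.0549) and SD6 against SD3 −0.18 (adjusted p = 0.135), so neither passed. The first of these passed with DESeq2 (0.223, adjusted p = 0.0471), with exchanged labels (0.226, adjusted p = 0.0206), without male HPS SD3 (0.217, adjusted p = 0.0431) and without female LPS SD2 (0.287, adjusted p = 0.0152).

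The gene nrv2 (FBgn0015777, 2L, 6789770 to 6798862, minus strand) encodes a beta subunit of the sodium pump that is made in many glia and belongs to the septate junctions. Its level was 824.9, 968.3, 950.9 and 1030 CPM in SD2, 973.3, 1063 and 1063 CPM in SD3, and 824.4, 824.6 and 746.2 CPM in SD6. SD6 lay below both other strains, by less than 1 CPM below the lowest SD2 sample. The SD6 to SD3 log2 fold change was −0.37 ± 0.09 (SE, edgeR adjusted p = 0.00846), and it did not pass without the male HPS SD6 sample (−0.296, adjusted p = 0.0612). SD6 against SD2, at −0.20, did not pass (adjusted p = 0.104) except with exchanged labels (−0.221, adjusted p = 0.0359).

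Draper, the receptor by which glia recognise and engulf neuronal debris, is encoded by drpr (FBgn0027594, 3L, 1715595 to 1731107, minus strand). It shares 115 exon bases with CG18171 on the same strand, a small part of its 4757 bp of exons. Its level was 200.0, 199.9, 187.5 and 174.1 CPM in SD2, 215.2, 230.6 and 247.8 CPM in SD3, and 173.8, 158.4 and 167.1 CPM in SD6. The 3 strains did not overlap, in the order SD3, SD2, SD6. SD6 was lower than SD3 by a log2 fold change of −0.48 ± 0.08 (SE, edgeR adjusted p = 0.0012). SD3 was higher than SD2 by 0.27 ± 0.08 (adjusted p = 0.0243), a call that was lost without any of 4 samples (female HPS SD2, female LPS SD3, male HPS SD2 or male HPS SD3). SD6 against SD2, at −0.21, did not pass (adjusted p = 0.0691), but did with exchanged labels (−0.234, adjusted p = 0.0256), without male HPS SD3 (−0.217, adjusted p = 0.0374) and without female HPS SD3 (−0.228, adjusted p = 0.029).

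The cortex glia marker wrapper encodes an immunoglobulin-domain adhesion protein that was first known from midline glia ensheathing axons (FBgn0025878, 2R, 22379637 to 22382675, plus strand). Its level was 62.9, 62.1, 57.4 and 62.9 CPM in SD2, 34.4, 35.8 and 29.9 CPM in SD3, and 39.7, 43.9 and 43.9 CPM in SD6. The 3 strains did not overlap, and the order SD2, SD6, SD3 put SD3 lowest, where 8 of the other 9 genes had their highest mean. SD3 was lower than SD2 by a log2 fold change of −0.87 ± 0.08 (SE, edgeR adjusted p = 6.93e-06), a ratio of 0.547. SD6 was lower than SD2 by −0.53 ± 0.08 (adjusted p = 0.000251) and higher than SD3 by 0.35 ± 0.08 (adjusted p = 0.0108).

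The SD6 to SD3 difference of wrapper did not pass without male HPS SD3 (0.283, adjusted p = 0.0524) or without male HPS SD6 (0.279, adjusted p = 0.0602). With the 2 male LPS libraries kept as labelled, the SD6 to SD3 difference was 0.0188 (edgeR adjusted p = 0.989). The differences from SD2 were then −0.772 for SD3 (adjusted p = 0.0547) and −0.753 for SD6 (adjusted p = 0.0582). The library labelled male LPS SD6 had 18.0 CPM of wrapper, below every other sample, and the library labelled male LPS SD3 had 42.6 CPM.

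**Figure D2:**
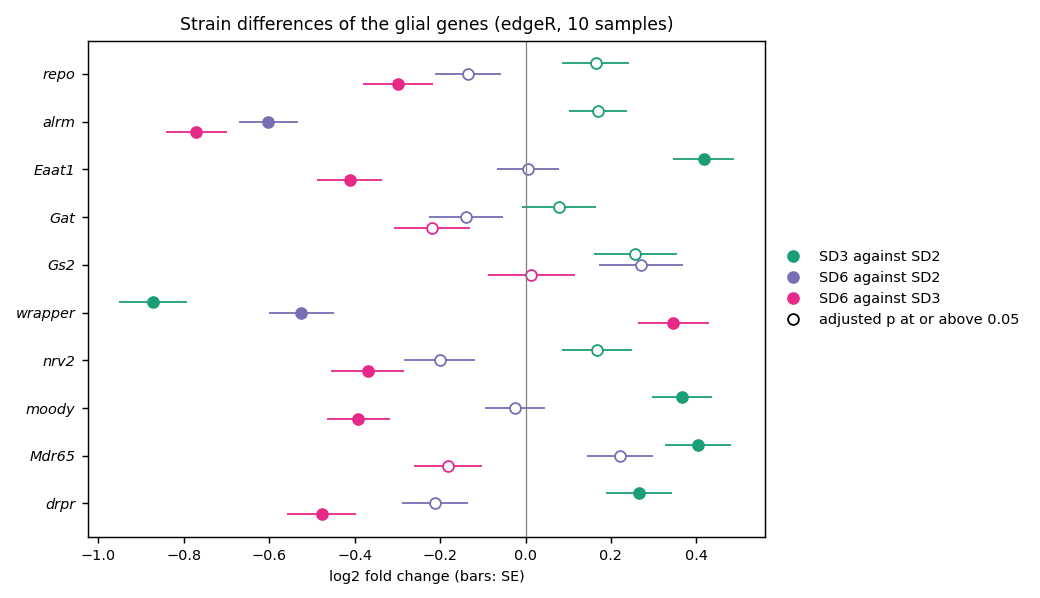
Log2 fold change of each glial gene between strains (horizontal axis, bars are SE) in 10 samples, filled where the edgeR adjusted p is below 0.05. For SD6 against SD3 the filled points are at or below −0.30 for 6 genes and at 0.35 for wrapper.

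Both libraries of run0465 are of SD2 males, so the strain contrasts were repeated within run0437, which keeps the first male LPS SD2 library. There 4 of 10 genes passed for SD3 against SD2 (background 20.3%), 2 of 10 for SD6 against SD2 (background 18.4%) and 7 of 10 for SD6 against SD3 (background 19.6%). The call that was lost was drpr in SD3 against SD2 (0.242, adjusted p = 0.0611). SD6 against SD3 was −0.77 for alrm, −0.47 for drpr and 0.35 for wrapper within this run.

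Genes that work beside these 10 were counted in 7 lists, to be read against the 20.2% of all genes called for SD6 against SD3 and the 10.2% called lower in SD6. For SD6 against SD3, 6 of 11 genes of transmitter uptake and recycling passed, 4 lower and 2 higher. GlyT, a glycine transporter gene, was lower at a log2 fold change of −0.47 ± 0.09 (SE, edgeR adjusted p = 0.00203). The gene e, whose product conjugates histamine to beta-alanine in lamina glia and also acts in cuticle tanning, was lower at −0.92 ± 0.18 (adjusted p = 0.00309). The gene t, whose product splits that conjugate in photoreceptors, was higher at 0.37 ± 0.09 (adjusted p = 0.00947), so the 2 enzymes of this cycle lay on opposite sides. The list median was −0.11.

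Of 14 genes in the engulfment pathway of drpr, 5 were lower and 1 higher in SD6 than in SD3, with a median of −0.12. NimC4, a receptor for apoptotic cells, stood at −0.69 ± 0.12 (edgeR adjusted p = 0.0012), and Mmp1, a secreted metalloproteinase that many tissues make, at −0.78 ± 0.18 (adjusted p = 0.00817). The one that was higher, prtp, encodes an endoplasmic reticulum protein reported as a Draper ligand and stood at 0.47 ± 0.09 (adjusted p = 0.00229). For SD3 against SD2, 3 of the 14 were higher and 0 lower, where 12.7% of all genes were higher. Those higher were Mmp1 at 1.07, Stat92E at 0.29 and Pvr at 0.34 on the log2 scale.

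Barrier and septate junction genes were mixed. In SD6 against SD3, 2 of 23 were higher and 3 lower, about the share among all genes, with a median of −0.05. Gli, a tricellular junction gene, was lower at −0.62 ± 0.07 (edgeR adjusted p = 7.53e-05), and Mcr, a septate junction gene of the complement-like family, was higher at 0.56 ± 0.08 (adjusted p = 0.000212). Mdr50, a relative of Mdr65, passed as well but had 0.118 to 3.39 CPM, too few reads for a useful fold change. In SD3 against SD2, 3 of the 23 were higher and 1 was lower, with a median of 0.02. The share called higher was about that among all genes (12.7%). Those higher were Nrx-IV at 0.39, Gli at 0.36 and sinu at 0.31 on the log2 scale.

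Against SD2, the SD6 samples had lower Gs1, the mitochondrial glutamine synthetase gene, at −0.45 ± 0.07 (edgeR adjusted p = 0.000768), and lower axo, a gene of axon-ensheathing glia, at −0.75 ± 0.09 (adjusted p = 4.53e-05). The transporter gene out was higher than in SD2 in both other strains, at 0.71 ± 0.09 in SD3 (adjusted p = 0.000121) and 1.19 ± 0.09 in SD6 (adjusted p = 7.71e-07). Counts for SD6 against SD2 were 3 of 11 for transmitter uptake, 6 of 23 for barrier genes (3 each way) and 4 of 14 for engulfment (1 higher and 3 lower). These counts lay near the 22.4% of all genes called in that comparison.

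The remaining lists were short. The FGF receptor gene htl was lower in SD6 than in SD3 (−0.36 ± 0.11, edgeR adjusted p = 0.0343) and was the single call among 5 regulators of glial fate, all 5 of which had negative values. These include gcm2, which had few reads (mean 0.729 CPM). Of all 10373 genes tested, 4943 had negative values in this comparison. The gene axo was lower in SD6 than in SD3 (−0.51 ± 0.09, adjusted p = 0.00189) and was the single call among 6 other cortex and ensheathing genes. In glial lipid and lactate metabolism 4 of 10 passed, with the lipocalin gene NLaz at 0.73 and the transporter gene out at 0.49 higher and the fatty acid binding gene fabp lower at −0.46. None of 4 other sodium pump genes passed, and all 4 had negative values with a median of −0.19, among them CG33310 with few reads (mean 0.48 CPM).

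**Figure D3:**
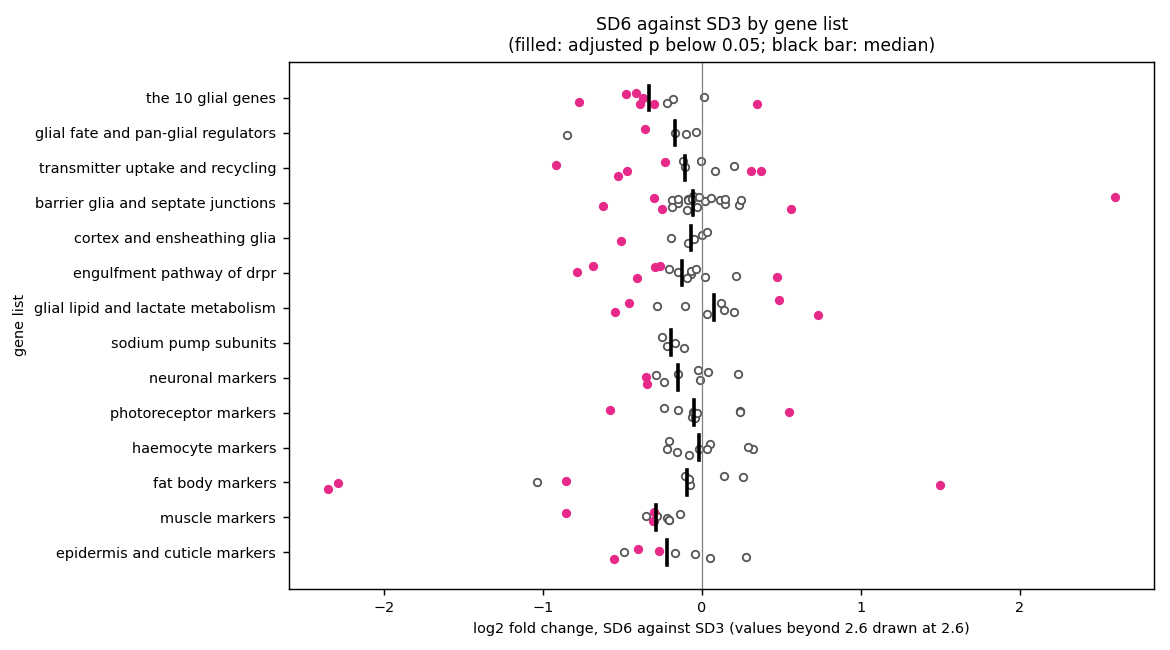
Log2 fold change of SD6 against SD3 for every tested gene of the 10 glial genes and of each companion or marker list (horizontal axis, 10 samples), with filled points for edgeR adjusted p below 0.05 and a black bar at each median; Mdr50 (3.65) is drawn at the right edge. The glial genes have a median of −0.33, and the medians of the muscle and cuticle markers, −0.29 and −0.22, lie below 0 as well.

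Markers of other head tissues were counted by strain as well. For SD6 against SD3 they are to be read against 20.2% of all genes called and 10.2% called lower in SD6. For SD6 against SD3, 2 of 9 neuronal markers were lower (Syn and Syx1A, both at −0.35 on the log2 scale) and the list median was −0.15. Among 10 muscle markers 3 were lower and all 10 values were negative, with a median of −0.29, and among 8 epidermis and cuticle markers 3 were lower, with a median of −0.22. The haemocyte markers had 0 of 9 past the threshold and a median of −0.02, and the photoreceptor markers had 1 higher and 1 lower of 11 and a median of −0.05. Summed neuronal markers ranged over 3279 to 3854 CPM in SD2, 3701 to 3788 in SD3 and 3204 to 3699 in SD6. The SD6 and SD3 ranges nearly touched (3699 against 3701 CPM), and SD2 overlapped both. Summed muscle markers ranged over 15860 to 28950 CPM in SD2, 22570 to 28850 in SD3 and 18600 to 27580 in SD6 and overlapped. Of 10 fat body markers 1 was higher and 3 were lower in SD6, with a median of −0.09. For SD3 against SD2, 23.2% of all genes were called and 12.7% were called higher. In that comparison 4 of 8 epidermis and cuticle markers and 1 of 10 muscle markers were higher, with medians of 0.32 and 0.16. Photoreceptor markers had 5 higher and 1 lower of 11 with a median of 0.26, and 0 of 9 neuronal markers passed. The haemocyte marker He had 0 reads in 1 of 12 samples, and no other marker was at 0 in any sample. The part of these tissues in the glial differences was not tested.

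Diet was not associated with any called difference among these genes. None of the 10 passed in the edgeR fit of 12 samples with strain as a block, where 0.0997% of all genes did. In that fit of the samples as labelled, none of the 10 had an unadjusted p below 0.05, where 884 of all 10026 genes had one. Neither removal of the 2 male LPS libraries (background 1.42%) nor exchange of their labels (background 1.7%) gave a call, and DESeq2 gave none (background 1.26%). The largest difference was that of alrm, with HPS samples of 100.6, 151.1 and 206.8 CPM (lowest, median and highest of 6) and LPS samples of 102.7, 169.0 and 244.9 CPM. Its log2 fold change, LPS against HPS, was 0.23 ± 0.18 (SE, edgeR adjusted p = 0.772), positive in 5 of 6 pairs matched by label and in 4 of the 4 that leave out the 2 male LPS libraries, and with exchanged labels it was 0.20 ± 0.05 (adjusted p = 0.0767), the smallest adjusted p for diet under any alternative.

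Values for the other genes by diet were small beside their spread in the 12 samples as labelled. The repo level was 36.7, 39.7 and 55.6 CPM on HPS and 38.8, 46.1 and 52.9 CPM on LPS (lowest, median and highest), with overlap over most of the range. Its log2 fold change was 0.11 ± 0.10 (edgeR adjusted p = 0.832), higher on LPS in 5 of 6 pairs by label and in 4 of 4 without the 2 male LPS libraries, and 0.217 ± 0.0671 without the 2 male LPS libraries (adjusted p = 0.151). Eaat1 at 0.14 ± 0.12, nrv2 at 0.13 ± 0.11 and Gat at 0.15 ± 0.12 had positive values, and Gs2 at −0.10 ± 0.08 a negative one. The barrier genes Mdr65 at 0.07 ± 0.07 and moody at 0.03 ± 0.12, and drpr at −0.04 ± 0.14 and wrapper at −0.03 ± 0.18, were no larger than about 1 SE. The value of wrapper turned to 0.0764 without the 2 male LPS libraries. Over the 10 genes 7 values were positive and the median was 0.09, where the median of all genes tested was 0.009.

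Within females 0 of 10 genes passed for diet (background 0.0%), within males 0 of 10 (background 0.0%), and the interaction of diet with sex gave 0 of 10 (background 0.0%). At an unadjusted p below 0.05, 420 of all genes were found in females, 581 in males and 180 for the interaction. By DESeq2 12, 19 and 0 genes of the whole table passed in these 3 comparisons. The widest difference between the sexes was that of repo, at 0.25 ± 0.14 for diet in females and −0.04 ± 0.14 in males, and the difference of −0.29 ± 0.20 had an unadjusted p of 0.166 and an edgeR adjusted p of 1.0. In each of the 13 companion and marker lists 0 genes passed for diet. The 9 neuronal markers all had positive values for diet with a median of 0.19, and their summed level was 3204 to 3777 CPM on HPS and 3457 to 5079 CPM on LPS. The value of 5079 CPM belonged to a male LPS library in doubt, and no sample outside that pair exceeded 3854 CPM.

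**Figure D4:**
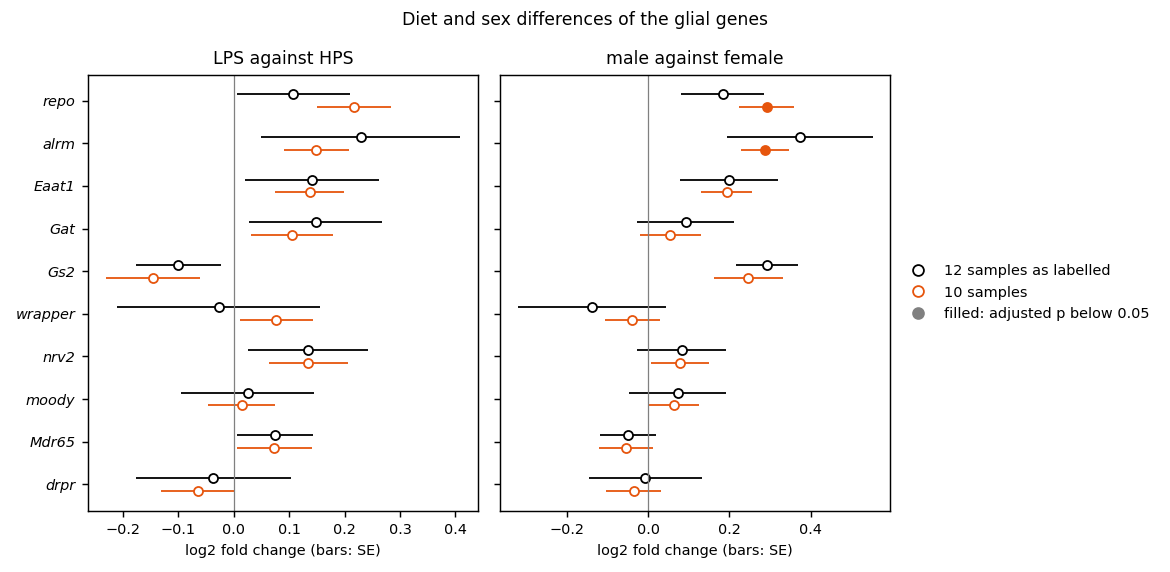
Log2 fold change of each glial gene for diet (LPS against HPS) and sex (male against female) on the horizontal axis with SE bars. Values are shown for 12 samples as labelled and for 10 samples without the 2 male LPS libraries, filled where the edgeR adjusted p is below 0.05. No diet point is filled, and for sex 0 genes are filled as labelled and 2 without the libraries.

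For sex, too, none of the 10 genes passed in the 12 samples as labelled, against a background of 3.04%. Gs2 came closest, with female samples of 2135, 2458 and 2905 CPM (lowest, median and highest of 6) and male samples of 2454, 3257 and 3574 CPM. The sexes overlapped. Gs2 was higher in the male of 6 of 6 pairs matched by label, and of 4 of 4 without the 2 male LPS libraries, by a log2 fold change of 0.29 ± 0.08 (SE, edgeR adjusted p = 0.0762), and it passed with DESeq2 (adjusted p = 0.00189, background 6.03%). Next came alrm at 0.37 ± 0.18 (adjusted p = 0.33), with means of 140.6 ± 31.9 CPM in females and 179.2 ± 48.1 CPM in males (SD, n = 6 each). The male values reached higher and the sexes overlapped.

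The sex calls changed with the 2 male LPS libraries. Without them 2 of 10 genes passed (background 7.72%), repo at 0.29 ± 0.07 (edgeR adjusted p = 0.0199) and alrm at 0.29 ± 0.06 (adjusted p = 0.00993), both higher in males. With exchanged strain labels 3 of 10 passed (background 11.2%), alrm at 0.34 ± 0.05 (adjusted p = 0.00101), Eaat1 at 0.18 ± 0.05 (adjusted p = 0.0434) and Gs2 at 0.29 ± 0.07 (adjusted p = 0.0206), again higher in males. Leaving out the library labelled male LPS SD3 alone gave 1 of 10, repo (background 4.95%). No glial gene was called lower in males under any of these settings. As labelled, the smallest sex values were those of drpr at −0.01, Mdr65 at −0.05, moody at 0.07, nrv2 at 0.08 and Gat at 0.09 on the log2 scale, and wrapper stood at −0.14.

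Among the companions, t was higher in males (0.48 ± 0.08, edgeR adjusted p = 0.0103) and Karl, a lipocalin gene, lower (−0.54 ± 0.11, adjusted p = 0.0312). All 9 neuronal markers had positive sex values with a median of 0.14 and 0 calls, and all 11 photoreceptor markers had positive values with a median of 0.11 and 1 call, Rh4. In contrast, 4 of 10 muscle markers and 4 of 9 haemocyte markers were lower in males, where 2.17% of all genes were, with medians of −0.42 and −0.31. Of 10 fat body markers 3 were lower in males, among them the yolk protein genes Yp1 and Yp2 that females make, with log2 values of −9.11 and −7.28. Summed muscle markers ranged over 20120 to 28950 CPM in females and 15860 to 22570 CPM in males. The part of these tissue differences in the higher male values of the glial genes was not tested.

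The 10 genes varied together to different degrees over the 12 samples. Pearson correlations of log2 CPM were highest for alrm with nrv2 (r = 0.906), Eaat1 with moody (r = 0.896), Eaat1 with nrv2 (r = 0.832) and moody with drpr (r = 0.829). Gs2 stood apart, with a median r of 0.1 to the other 9. The gene wrapper was negatively correlated with all 9 others, most with Mdr65 (r = −0.814), Eaat1 (r = −0.791) and moody (r = −0.771) and least with repo (r = −0.147). These 12 points share 3 strains and their library sizes, so the values describe the samples and carry no p.

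**Figure D5:**
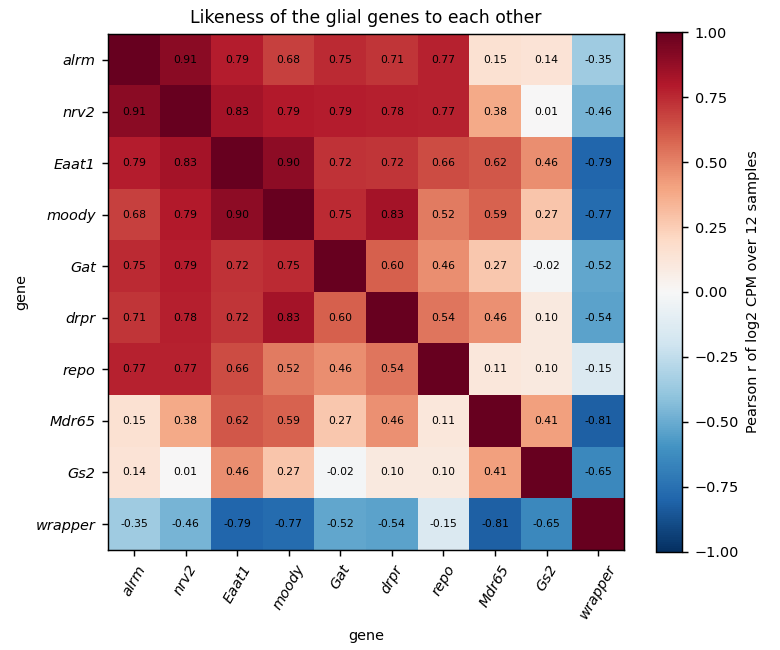
Pearson r of log2 CPM between each pair of the 10 glial genes over 12 samples, on a colour scale from −1 to 1 with the genes on both axes. The row of wrapper is negative throughout, from −0.147 to −0.814, and alrm with nrv2 is the highest pair at 0.906.

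Over all tested genes, those most like each glial gene by the same measure (n = 12 samples) were Nlg4 (r = 0.936) and side-VII (r = 0.932) for repo, CG43902 (r = 0.96) and CG9896 (r = 0.956) for alrm, and Ugt35A1 (r = 0.963) and Ugt301D1 (r = 0.954) for Eaat1. For Gs2 they were rst (r = 0.949) and Gbeta76C (r = 0.943), and for Gat they were Pka-R2 (r = 0.969) and CG11155 (r = 0.963). The barrier genes had app (r = 0.965) and Su(dx) (r = 0.957) for moody, and Boot (r = 0.95) and Cyp12b2 (r = 0.923) for Mdr65. CG14015 (r = 0.953) and rsh (r = 0.949) were nearest to nrv2, CG31635 (r = 0.958) and jhamt (r = 0.952) to drpr, and CG8908 (r = 0.975) and CG5382 (r = 0.974) to wrapper. None of the 10 genes was among the 2 most like another of the 10.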

How the data were processed

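The deposited values are raw counts of reads per gene, whole numbers made by the authors, who per the labels' protocols selected poly(A) RNA from 100 ng per sample, kept strand information and read 75 bp from one end. Tools in the submitters' processing notes are TopHat2 2.1.0 and HTSeq 0.6.1p1, after base calling with CASAVA 1.8.2 and bcl2fastq 1.8. Neither a genome build nor an annotation for these counts is given in the sources used here. Symbols, exon lengths and coordinates come from the Ensembl annotation of BDGP6 (17155 of 17370 identifiers matched). The tests and library sizes leave out 96 spike-in and 5 summary rows. Reads outside any annotated feature were 2.93% to 4.96% of the reads in run0437 and 10.4% to 15.0% in run0465, and ambiguous reads a further 2.66% to 3.91% over both runs. A line's reads can differ in sequence from the reference. Mapping of such differences was not analysed here.

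Counts were tested in R 4.3.3 with edgeR 4.0.16 (TMM, filterByExpr with a minimum count of 10, quasi-likelihood F-test, Benjamini-Hochberg adjustment over all genes tested, threshold 0.05). Diet and sex were fitted on 12 RNA samples with strain as block (10026 genes, 7 residual degrees of freedom). Strain was fitted on 10 samples with diet and sex (10373 genes, 5 residual degrees of freedom). Replicate numbers are strain numbers, so they pair samples by design, and the correlations of the pairing check stand in the report. Each pool was fitted as 1 replicate, and no combination of strain, sex and diet had a second pool. The p-values therefore measure spread around the fitted effects, in which unfitted interactions and differences between pools cannot be told apart. In the fits of 12 samples this spread includes the 2 male LPS libraries under their labels. The male and female pools of a line and diet came from the same vials, which the fits did not model. Alternatives were DESeq2 1.42.0, its size factors in edgeR, no filter, other treatments of the 2 male LPS libraries, 1 run, no block, summed sexes and each sample left out.

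The 10 genes and all lists (145 of 147 listed genes matched) were chosen with earlier results of these data known. Named are all 10 genes, up to 3 called genes of smallest p per list and comparison, and the 2 genes of highest correlation to each.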

Additional observations from a re-analysis of the deposited data

Results flagged for a closer look

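The values of each glial gene within SD2, within each diet and within each sex, 50 sets in all, were examined for a single sample far from the others, and 2 were found. Chance flags about 1 in 20 groups. Mdr65 in SD2 was highest in the female LPS sample, at 244 CPM, where the other 3 SD2 samples lay at 200.0 to 205.6 CPM. On the log2 scale the gap was 0.863 of the whole range. wrapper in SD2 was lowest in the male HPS sample, at 57.4 CPM, with the other 3 at 62.1 to 62.9 CPM and a gap of 0.852 of the log2 range. The male HPS SD2 library belongs to run0465.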

How the results depend on the processing

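With the 2 male LPS libraries kept as labelled, 1 glial gene passed by strain, 1 for SD3 against SD2, 0 for SD6 against SD2 and 0 for SD6 against SD3. With their labels exchanged, 3 passed by sex and 6 for SD6 against SD2, without them 2 by sex, and with DESeq2 1 by sex and 4 for SD6 against SD2. Leaving out single samples gave 0 to 1 by sex, 4 to 7 for SD6 against SD3 (4 without male HPS SD6) and 2 to 5 for SD6 against SD2 (5 without male HPS SD3). Fits with no replicate block gave 0 by diet and 0 by sex, and with the sexes summed and a replicate block by strain 0 passed by diet. Of the values per gene under alternatives, 834 kept direction and side of the threshold, 25 lost and 24 gained a call, and 37 changed sign, none of them called in the first fit. On the log2 scale, wrapper by diet was 0.0764 without the 2 libraries and 0.0437 with the sexes summed, where moody was −0.0185. Eaat1 in SD6 against SD2 was −0.0243 with exchanged labels. As labelled, Gat was 0.0139 for SD6 against SD2 and 0.0128 against SD3, and moody 0.112 against SD2. Within run0437, drpr by sex was 0.0109 and moody in SD6 against SD2 0.0377. With single samples left out, diet values ran from −0.181 to 0.0746 for drpr, −0.0876 to 0.122 for moody and −0.129 to 0.143 for wrapper. Sex values ran from −0.151 to 0.103 for drpr, −0.0447 to 0.175 for moody, −0.0135 to 0.167 for nrv2, −0.0234 to 0.178 for Gat and −0.269 to 0.0311 for wrapper. SD6 against SD2 ran from −0.0215 to 0.037 for Eaat1 and −0.0568 to 0.0231 for moody, SD6 against SD3 from −0.0603 to 0.11 for Gs2, and SD3 against SD2 from −0.00133 to 0.2 for Gat. The cause of these changes was not tested. One pool per combination and 1 line per strain limit what these values can show.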
